A study of Rattus norvegicus with 6 samples.

Results

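The Notch pathway genes described here are the ligands Jag1, Jag2, Dll1 and Dll4, the receptors Notch1, Notch2 and Notch3, the DNA-binding protein Rbpj and the target genes Hes1 and Hey1. The list was chosen with earlier results of these data known. Its 10 genes, of 14217 named on the array, were matched by symbol. They were represented by 14 probe sets that the platform annotation gives to 1 gene each, and where a gene had several, the probe set with the highest mean log2 signal over the 6 arrays stood for it. Signals were measured in kidney tissue of male Han:SPRD rats, with 3 arrays from heterozygous Cy/+ rats and 3 from wild-type +/+ rats. The Cy/+ animals carry 1 copy of a missense mutation in Anks6 and develop slowly progressing cystic kidneys, while the +/+ animals of the colony carry none and serve as controls. The labels name no treatment and give an age of 10 weeks for every sample, whereas the methods state a younger age for the array material. The tissue is whole kidney, so that a level is a mix over all its cell types, and nothing in the sources says whether each array came from its own rat. The p-values therefore reflect only how these samples varied, and that variation may be technical.

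Notch signaling passes between touching cells. A Jagged or Delta-like ligand on one cell binds a Notch receptor on its neighbour, a metalloprotease and then gamma-secretase cut the receptor, and the freed intracellular part enters the nucleus, where it joins Rbpj and a Mastermind coactivator to switch on genes such as those of the Hes and Hey repressors. Without the receptor fragment, Rbpj holds these genes silent together with corepressors. In the developing kidney the pathway takes part in the patterning of the nephron, and in the adult collecting duct it helps to keep principal cells apart from intercalated cells.

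Hes1 is a classic target of the pathway. The stretch of 250 bases before its transcription start is printed with the core letters of the Rbpj motif marked. Beside it is the stretch of Notch1, the member with the largest change below. Both are from RefSeq's promoter table of the rat assembly GRCr8 and run 5′ to 3′ on the strand of the gene, which is the minus strand for both, and capitals mark the core letters of the Rbpj motif, TGGGAA or its reverse complement.
Hes1, chr11:84213046-84213295: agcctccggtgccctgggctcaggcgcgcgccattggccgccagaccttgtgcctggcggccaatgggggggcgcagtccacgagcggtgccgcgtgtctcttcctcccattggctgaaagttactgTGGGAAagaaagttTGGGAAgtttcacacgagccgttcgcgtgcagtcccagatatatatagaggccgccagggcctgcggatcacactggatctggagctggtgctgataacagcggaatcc
Notch1, chr3:29721614-29721863: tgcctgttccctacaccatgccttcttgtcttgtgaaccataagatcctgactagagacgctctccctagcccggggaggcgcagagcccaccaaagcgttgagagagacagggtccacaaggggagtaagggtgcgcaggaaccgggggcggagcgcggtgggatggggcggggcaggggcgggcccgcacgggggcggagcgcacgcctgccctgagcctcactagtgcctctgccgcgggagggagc
The Hes1 stretch holds the letters at 2 places, whose first bases lie 123 and 109 bases before the start, and the Notch1 stretch holds them nowhere. Of the 8 members with an entry in the table, Hes1, Dll1 and Rbpj held the letters in at least 1 of their windows. Of all 33469 windows of this length, 22.1% held them on either strand and 2.71% held them at 2 or more places, so a match is a description of the sequence. Other forms of the motif were not searched for, and binding by Rbpj was not tested.

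Among the Notch pathway genes, Notch1, Jag2 and Hes1 were called higher in Cy/+ kidneys, by 2.72-fold, 1.63-fold and 1.58-fold. The calls of Jag2 and Hes1 were lost in 5 and 4 of the 6 fits that left out an array. Neither gene passed by the methods' t-test (adjusted p = 0.120 and 0.105). Rbpj was 1.75-fold higher by its brightest probe set, but another of its probe sets was lower, and its direction depended on which was read. Jag1, Dll4 and Hey1 did not pass the test, and Dll1, Notch2 and Notch3 were too dim to be tested. Across all 18625 probe sets tested, 35.8% were called higher and 31.3% lower (limma, Benjamini-Hochberg adjusted p under 0.05). Of the 7 members tested, 4 were called higher and none lower, with 4 and none also at an unadjusted p under 0.05 in limma, and with 2 and none by the methods' t-test after the same adjustment. The count of 4 fell to 2 on leaving out Cy/+ replicate 2 or 3 or +/+ replicate 1 or 2, was 3 on leaving out +/+ replicate 3 and rose to 6 on leaving out Cy/+ replicate 1. The median log2 fold change of the 7 members was 0.66, against 0.048 over all probe sets tested. The first counts only the brightest probe set of each gene, Rbpj among them at 0.80, so the units differ. Hey1 was among the 7 only through its Cy/+ arrays. The median leaves out the untested members, whose log2 differences were 0.17 (Dll1), -0.43 (Notch2) and -0.12 (Notch3). In whole tissue a gene with more cells that use it cannot be told apart from a gene with more RNA per cell.

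**Figure D1:**
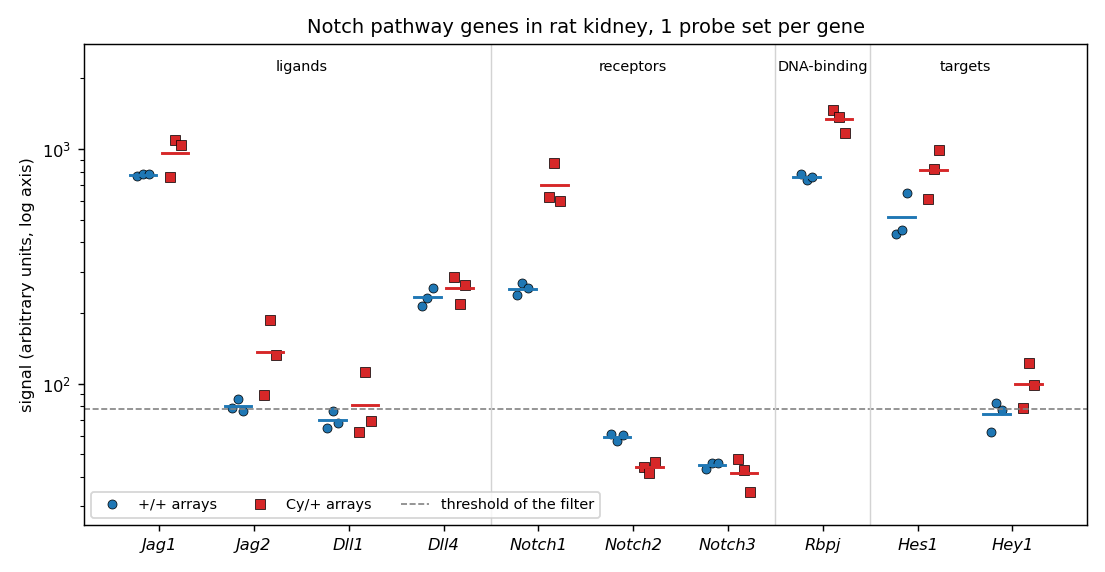
Signal of each array, in arbitrary units on a log axis, for the probe set that stands for each Notch pathway gene. Circles are +/+ arrays, squares are Cy/+ arrays, solid lines are the mean of each genotype and the dashed line is the threshold of 77.8 below which a mean over the arrays was not tested. The Cy/+ arrays of Notch1, Rbpj and Jag2 lie above all +/+ arrays, and Notch2 and Notch3 lie below the threshold on every array.

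The arrays carried differences between the genotypes beyond single genes. All 18 probe sets of the spiked-in hybridization controls gave more signal on each Cy/+ array than on any +/+ array (median 1.83-fold), although the array medians were close (125 to 127.5 in Cy/+ and 120 to 122 in +/+). For beta-actin, the 3′ control probe set was 3.05 to 3.53 times as bright as the 5′ set on the Cy/+ arrays and at most 1.52 times on the +/+ arrays, and this ratio follows RNA integrity and labeling. The part of these differences in the results below was not tested. The 10 proximal tubule markers, which checked the tissue label, had means from 2514 to 20737 in +/+ kidneys.

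Among the ligands, Jag2 was higher in Cy/+ kidneys, and Jag1 and Dll4 were not called. Jag2, a ligand of the Serrate type, had signals of 78.8, 85.7 and 76.2 on the +/+ arrays and of 89.3, 187 and 133 on the Cy/+ arrays. The genotypes did not overlap, but the lowest Cy/+ array lay only just above the highest +/+ array, and the +/+ mean of 80.2 ± 4.9 (SD, n = 3) lay just above the threshold for testing. The log2 fold change was 0.70 (standard error, SE, 0.25, limma adjusted p = 0.0387). This call was lost without Cy/+ replicate 2, where the log2 fold change was 0.44, and 5 of the 6 fits that left out an array did not pass. It was also lost with arrays centred on their medians (limma adjusted p = 0.0582).

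Jag1, the other Serrate-type ligand, whose loss of a copy causes Alagille syndrome in people, had signals of 770, 779 and 780 on the +/+ arrays and of 763, 1093 and 1039 on the Cy/+ arrays. Cy/+ replicate 1 lay below all +/+ arrays and the other two lay above them. The log2 fold change was 0.30, with a 95% interval from -0.034 to 0.63 (limma adjusted p = 0.0974), and without Cy/+ replicate 1 it was 0.46 and passed (limma adjusted p = 0.00110). The +/+ arrays of Jag1 were close to each other, with an SD of 0.010 on the log2 scale, against 0.28 in Cy/+.

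Dll4, the Delta-like ligand best known from arterial endothelium and sprouting vessels, had signals of 214, 231 and 255 on the +/+ arrays and of 286, 218 and 263 on the Cy/+ arrays. The genotypes overlapped, and the log2 fold change was 0.12, with a 95% interval from -0.18 to 0.43 (limma adjusted p = 0.417). Its sign changed to -0.0078 with quantile normalization. The second probe set of Dll4 gave 0.17 (limma adjusted p = 0.369), also with overlapping genotypes. Dll1, a Delta-like ligand, was not tested, with signals of 64.8, 76.1 and 68.1 in +/+ and of 62.1, 112 and 69.0 in Cy/+ kidneys, which overlapped. Cy/+ replicate 2 was the brightest Cy/+ array for Jag1, Jag2 and Dll1 and the dimmest for Dll4.

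Among the receptors, Notch1 had the largest change of all members. Its brightest probe set had signals of 238, 269 and 254 on the +/+ arrays and of 624, 875 and 601 on the Cy/+ arrays. Every Cy/+ array was above every +/+ array, which held for 39.5% of all probe sets tested. The mean was 254 ± 15.1 (SD, n = 3) in +/+ and 700 ± 152 (SD, n = 3) in Cy/+ kidneys, and the log2 fold change was 1.44 (SE 0.15, limma adjusted p = 0.000202). The second probe set of Notch1 was higher by 1.58 on the log2 scale (SE 0.19, adjusted p = 0.000356), with 237, 223 and 205 in +/+ and 582, 904 and 547 in Cy/+ kidneys. Both probe sets put Cy/+ replicate 2 highest. Leaving out any array kept the log2 fold change of the brightest probe set between 1.27 and 1.54, and Notch1 passed in every alternative tried.

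Notch2, the receptor known for its part in forming proximal tubules and podocytes, and Notch3, a receptor of vascular smooth muscle and pericytes, had dim probe sets. For Notch2 the signals were 60.8, 56.8 and 60.7 in +/+ and 44.3, 41.5 and 46.5 in Cy/+ kidneys. Every Cy/+ array was below every +/+ array, as for 35.3% of all probe sets tested, but all lay under the threshold for testing. When the filter was dropped, the log2 fold change of Notch2 was -0.43 (limma adjusted p = 0.00474). For Notch3 the signals were 43.2, 46.0 and 45.9 in +/+ and 47.9, 42.7 and 34.7 in Cy/+ kidneys, and the genotypes overlapped. Without detection calls it is not known whether these probe sets were above background, and each had no second probe set to set beside it.

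Rbpj, which carries the signal to DNA, had 3 probe sets that did not move together. The brightest had signals of 785, 741 and 758 on the +/+ arrays and of 1470, 1372 and 1165 on the Cy/+ arrays. These did not overlap, and the log2 fold change was 0.80 (SE 0.10, limma adjusted p = 0.000439). The second had 344, 317 and 331 in +/+ and 318, 194 and 241 in Cy/+ kidneys. They overlapped, and the log2 fold change was -0.43 (limma adjusted p = 0.0644). The dimmest had 156, 141 and 166 in +/+ and 82.7, 69.2 and 81.7 in Cy/+ kidneys, with every Cy/+ array lower and a log2 fold change of -0.99 (SE 0.11, adjusted p = 0.000286). The Cy/+ mean log2 signal of this probe set lay just below the threshold. By the mean of its probe sets Rbpj had a log2 fold change of -0.20 (limma adjusted p = 0.139), so the direction for this gene rests on which probe set is read.

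Such disagreement was not peculiar to Rbpj. Of the 1550 genes with at least 2 probe sets called, 459, or 29.6%, had calls in both directions. In 367 genes the brightest probe set was called higher and another lower, and in 55 the brightest was called lower and another higher. The files give neither the sequences of the probes nor their distance from the 3′ end, and the part of the 3′ to 5′ differences in these calls was not tested.

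**Figure D2:**
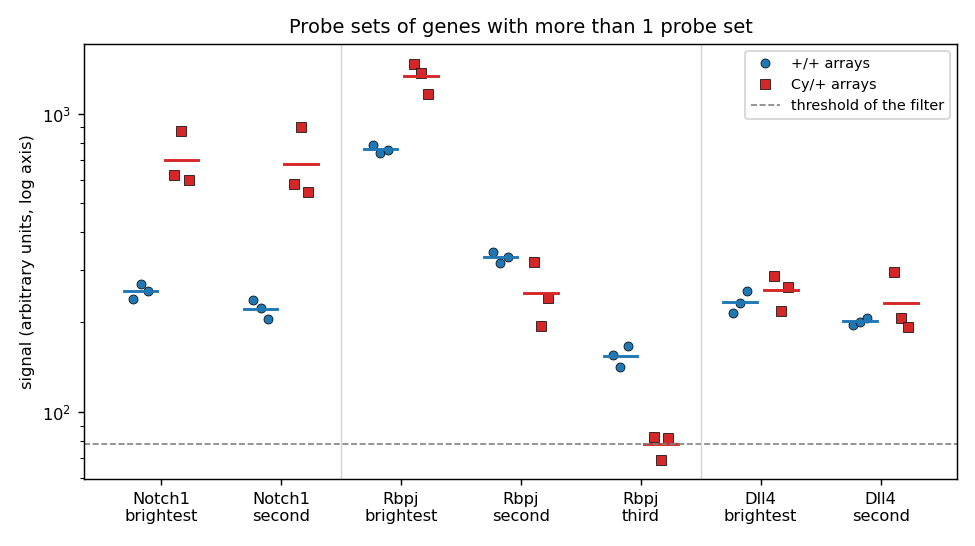
Signal of each array, in arbitrary units on a log axis, for all probe sets of Notch1, Rbpj and Dll4, the members with more than 1, in order of brightness. Circles are +/+ arrays, squares Cy/+ arrays, solid lines means and the dashed line the threshold for testing. Both probe sets of Notch1 are higher in Cy/+ kidneys, whereas the brightest of Rbpj is higher, with a log2 fold change of 0.80, and its dimmest is lower, at -0.99.

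Of the target genes, Hes1 was called higher and Hey1 was not. Hes1, a repressor that holds back differentiation, had signals of 432.5, 449 and 651 on the +/+ arrays and of 613, 825 and 992 on the Cy/+ arrays. The genotypes overlapped, since +/+ replicate 3 lay above Cy/+ replicate 1. The mean was 511 ± 121 (SD, n = 3) in +/+ and 810 ± 190 (SD, n = 3) in Cy/+ kidneys, and the log2 fold change was 0.66 (SE 0.22, limma adjusted p = 0.0306). Of the 6 fits that left out an array, 4 did not pass, those without Cy/+ replicate 2 or 3 and without +/+ replicate 1 or 2, with log2 fold changes from 0.50 to 0.64. In +/+ kidneys Hes1 spread more than any other member, with an SD of 0.33 on the log2 scale.

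Hey1, a related repressor of vessels and mesenchyme, had signals of 62.0, 83.0 and 77.2 on the +/+ arrays and of 78.4, 123 and 98.9 on the Cy/+ arrays. They overlapped, and the +/+ mean lay below the threshold for testing. The log2 fold change was 0.42, with a 95% interval from -0.023 to 0.86 (limma adjusted p = 0.0832). Without Cy/+ replicate 1 it was 0.58 and passed (limma adjusted p = 0.0157).

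All 10 members had a larger SD of log2 signal in Cy/+ than in +/+ kidneys, as did 76.5% of all probe sets tested. Cy/+ replicate 2 was the brightest Cy/+ array for Jag1, Jag2, Dll1, Notch1 and Hey1 and the dimmest for Dll4 and Notch2. Cy/+ replicate 1 was the dimmest for Jag1, Jag2, Dll1, Hes1 and Hey1 and the brightest for Dll4, Notch3 and Rbpj. Cy/+ replicate 3 was the brightest for Notch2 and Hes1 and the dimmest for Notch1, Notch3 and Rbpj. The members thus shared no single order of the Cy/+ arrays. In the same arrays the summed signal of 9 collecting duct markers was 18322 for Cy/+ replicate 2, 12533 for replicate 3 and 5586 for replicate 1, against 7256 to 8353 in +/+ kidneys. Aqp2, which did not pass (limma adjusted p = 0.0757), gave 2978, 9908 and 6850 on Cy/+ replicates 1, 2 and 3. Its +/+ arrays gave 2651, 3274 and 3422. Of the 9 markers 1 was called higher (Aqp4, 2.28 on the log2 scale), 1 lower (Slc26a4, -1.13) and 7 did not pass. Of all probe sets tested, 35.8% were higher and 31.3% lower. Each marker was counted by its brightest probe set only. The summed signal of the 10 proximal tubule markers was 10727 for Cy/+ replicate 2 and 23007 and 25987 for replicates 1 and 3, against 93398 to 98033 in +/+ kidneys. The part of such cell type differences in the spread of the Notch genes was not tested.

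Endothelial cells, mural cells and leukocytes also use Notch genes, and some of their markers differed between the genotypes. The marker counts here are to be read against 35.8% higher and 31.3% lower of all probe sets tested. They include only the brightest probe set of each gene, so the units differ. Of 8 endothelial markers tested 4 were lower and none higher, with a summed signal of 4092 to 5648 in Cy/+ and 7763 to 8482 in +/+ kidneys. Of 7 markers of smooth muscle, pericytes and myofibroblasts, 4 were higher and none lower, and the summed signal of the 8 listed was 9766 on Cy/+ replicate 1, 5143 and 4874 on the other two Cy/+ arrays and 2654 to 3145 in +/+ kidneys. All 6 macrophage markers tested were higher, with a summed signal over 7 genes of 4070 to 7128 in Cy/+ and 2247 to 2478 in +/+ kidneys. All 7 markers of injured tubules tested were higher too. Of the lymphocyte markers, Cd3e had a mean of 65.1 in +/+ and 249.6 in Cy/+ kidneys and Cd3d one of 51.5 and 209, and both passed the filter only through the Cy/+ arrays. Cd2, the other one tested, was higher by 0.84 on the log2 scale (limma adjusted p = 0.00817). Of 5 podocyte markers 4 were lower and 1 higher. The higher one was Synpo, at 0.56 on the log2 scale, whose other tested probe sets were lower, at -0.81 and -1.22. The share of these cells in the change of a Notch gene was not tested.

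The other genes of the pathway, which were listed by role, showed more rises than falls. Among the 43 that could be tested, 22 rose, 7 fell and 14 missed the threshold, and the median log2 fold change was 0.34. The share called in either direction, 67.4%, was next to the 67.1% of all probe sets tested. The share called higher was 51.2%, against 35.8% of all probe sets tested, and 31.3% of all were lower. The pathway shares count only the brightest probe set of each gene, whereas the shares of all count every probe set tested. Brightest probe sets leaned higher, as the 367 and 55 genes above show, so the units differ. With the probe sets of each gene averaged, 20 of these genes were higher and 10 lower. The counts by role below are to be read against the shares of all probe sets tested, with the same difference in units.

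**Figure D3:**
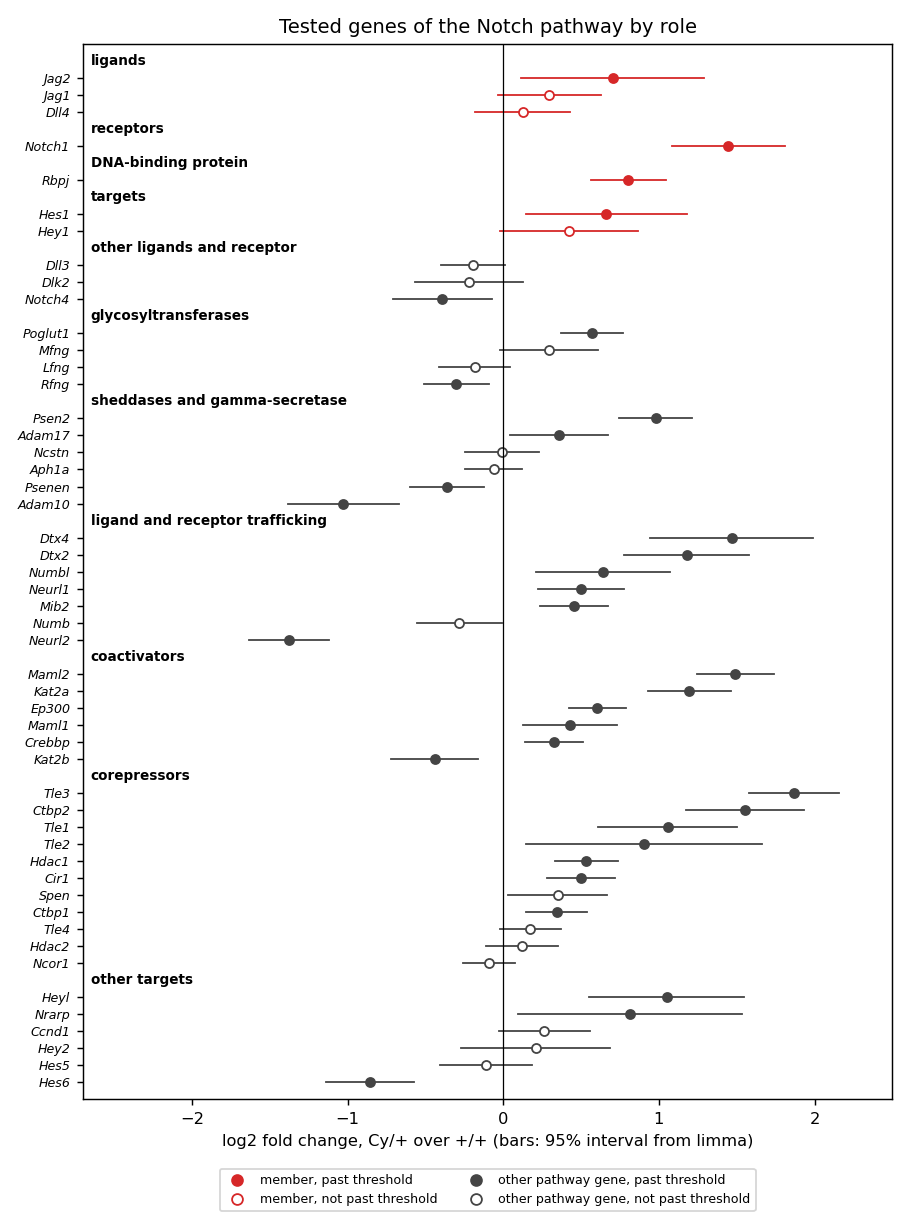
Log2 fold change, Cy/+ over +/+, of each tested member (red) and each other tested gene of the pathway (grey), grouped by role, with 95% intervals from limma. Filled points passed the threshold of the adjusted p and open points did not. Coactivators and corepressors lie mostly to the right of 0, with Tle3 at 1.87, and Adam10 and Neurl2 lie farthest to the left, at -1.03 and -1.38.

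Upstream of receptor cleavage the genes moved in both directions. Of the remaining ligands and receptors, Notch4, a receptor of endothelium, was lower, at -0.39 on the log2 scale (limma adjusted p = 0.0348), and its Cy/+ mean of 71.4 lay below the threshold for testing. The call of Notch4 was lost in 4 of the 6 fits that left out an array, those without Cy/+ replicate 2 or 3 or +/+ replicate 1 or 2, with a highest adjusted p of 0.112. Dll3 and Dlk2 did not pass, at -0.20 and -0.22, and Dlk1 was too dim. Among the enzymes that put sugars on the receptor, Poglut1, the O-glucosyltransferase, was higher (0.57, adjusted p = 0.000862) and Rfng, a fringe that changes which ligands a receptor prefers, was lower (-0.30, adjusted p = 0.0196, and -0.97 by its second probe set). The first value of Rfng did not pass without +/+ replicate 1 or 3 (highest limma adjusted p = 0.0733). Lfng and Mfng, the other fringes, did not pass, at -0.18 and 0.29.

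Of the 6 genes tested for the cutting of the receptor, 2 were higher, 2 lower and 2 did not pass. Adam10, the metalloprotease that makes the ligand-dependent cut, fell from a mean of 446 in +/+ to 221 in Cy/+ kidneys, a log2 fold change of -1.03 (SE 0.15, limma adjusted p = 0.000848), and of -1.13 by its second probe set. Adam17, a related sheddase, was higher by 0.36 (limma adjusted p = 0.0452), a call that held only without Cy/+ replicate 3 among the 6 fits that left out an array (highest limma adjusted p = 0.128). Psen2, a catalytic subunit of gamma-secretase, was higher by 0.98 (SE 0.10, adjusted p = 0.000164), and Psenen, another subunit, was lower, at -0.36 (limma adjusted p = 0.0154), but not past the threshold without +/+ replicate 2 (limma adjusted p = 0.0653). Ncstn and Aph1a, 2 further subunits, did not pass, at -0.011 and -0.062, although the second probe set of Ncstn gave -1.05 (limma adjusted p = 0.000117).

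Of 12 listed genes that handle ligands and receptors inside the cell, 9 had a probe set and 7 were tested. Of these 7, 5 were higher and 1 lower. Dtx1 and Neurl1b were too dim to be tested, with log2 differences of -0.38 and -0.44. Both had every Cy/+ array below every +/+ array, as for 35.3% of all probe sets tested. Dtx4 and Dtx2, ubiquitin ligases of the Deltex family, had log2 fold changes of 1.47 (limma adjusted p = 0.000952) and 1.18 (limma adjusted p = 0.000787). Neurl2, of the Neuralized family, was lower, at -1.38 (SE 0.11, adjusted p = 6.69e-05). Mib2, Neurl1 and Numbl were the other higher genes. The call of Numbl was lost in 2 of the 6 fits that left out an array (highest limma adjusted p = 0.0558). Numb, which opposes the receptor, had -0.28 and did not pass (limma adjusted p = 0.0637), while its second probe set gave -1.68 (limma adjusted p = 6.49e-05).

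Both partners of Rbpj, the coactivators and the corepressors, were mostly higher. Of 6 coactivators tested 5 were higher and 1 was lower. The call of Maml1 (0.43, limma adjusted p = 0.0207) was lost in 2 of the 6 fits that left out an array. The highest limma adjusted p among those fits was 0.0767, and with quantile normalization it was 0.0773. Maml2, a Mastermind protein, had a mean of 231 in +/+ and 651 in Cy/+ kidneys, a log2 fold change of 1.49 (SE 0.10, limma adjusted p = 4.46e-05). Its other probe sets were too dim to be tested, and by the mean of all its probe sets the log2 fold change was 0.21. Kat2a, an acetyltransferase, was higher by 1.19 (limma adjusted p = 0.000126), and its relative Kat2b was lower, at -0.44 (limma adjusted p = 0.0130, and -1.55 by its second probe set). The first value of Kat2b did not pass without +/+ replicate 1 (limma adjusted p = 0.0534).

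Of 11 corepressor genes tested 7 were higher and none was lower by its brightest probe set. The 7 included Tle1, which entered the test only through its Cy/+ arrays, as its +/+ mean log2 signal of 6.25 was under the threshold of 6.28. Tle3, of the Groucho family, had a log2 fold change of 1.87 (SE 0.12, limma adjusted p = 3.81e-05), from 627 in +/+ to 2302 in Cy/+ kidneys. Ctbp2, another corepressor, had one of 1.55 (limma adjusted p = 0.000182). By its second probe set Hdac1 was lower, at -1.21, against 0.53 by the brightest, and so was Tle4, at -1.56 against 0.17. Of the 6 further targets or relatives of targets, Heyl was higher by 1.05 (limma adjusted p = 0.00362), or by 0.43 by the mean of its probe sets, and Nrarp, a feedback inhibitor of the pathway, by 0.81 (limma adjusted p = 0.0475). The second tested probe set of Nrarp gave 0.066 (limma adjusted p = 0.867), and the first passed only without Cy/+ replicate 1 among the 6 fits that left out an array (highest limma adjusted p = 0.138). Hes6, a family member that opposes Hes1, was lower, at -0.85 (limma adjusted p = 0.000683), and Hes5, Hey2 and Ccnd1 did not pass, at -0.11, 0.21 and 0.26, although another probe set of Ccnd1 gave 0.93 (limma adjusted p = 0.00713).

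The genes whose arrays ran closest to those of Notch1 were Atp13a2, Ap1g2 and Dennd1c. Likeness was the root mean square distance over the 6 arrays between log2 signals set to the mean of the +/+ arrays, and among 10644 other genes these 3 had distances of 0.057, 0.058 and 0.066. Their log2 fold changes were 1.47, 1.43 and 1.49. These distances are a description of the 6 arrays, and the genotype makes up most of each profile. No member was called lower, so no such genes are given for a fall.

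**Figure D4:**
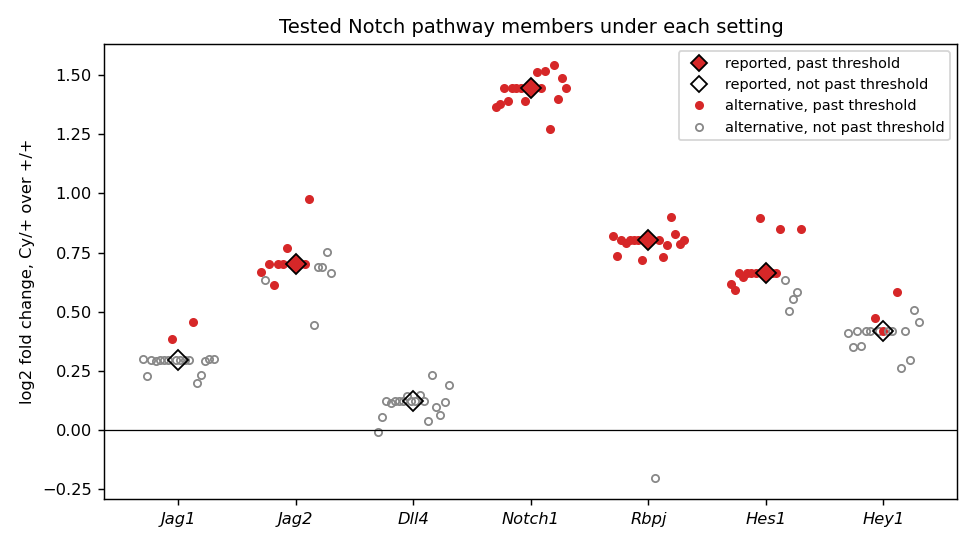
Log2 fold change, Cy/+ over +/+, of each tested Notch pathway gene as reported (diamonds) and under each alternative setting (small circles), with filled red marks where the adjusted p passed the threshold and open marks where it did not. Notch1 passed in every setting, between 1.27 and 1.54, while Jag2 and Hes1 lost their calls in several, Dll4 reached -0.0078 with quantile normalization and Rbpj reached -0.20 by the mean of its probe sets.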

How the data were processed

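Kidney RNA, 3 samples labelled Cy/+ and 3 labelled +/+, was hybridized to rat genome oligonucleotide arrays, 1 per sample. The authors used GCOS for image analysis, and MAS5 is named in the processing notes. The deposited signal intensities are linear, 1 per probe set, and carry no detection calls. Their log2 values were used with no further scaling or pseudocount. Control probe sets (57 of 31099) were left out, and those with a mean log2 signal at or above the 40th percentile (6.28, a signal of 77.8) were tested. Symbols came from the platform annotation, updated through Entrez IDs with a GRCr8 table used for names. The genotypes were fitted in limma 3.58.1 under R 4.3.3 (intensity trend, no covariate, two-sided), with Benjamini-Hochberg adjustment across every probe set tested and a threshold of 0.05. The fit was tested on simulated data. All 10 members are named; of the other pathway genes, those past the threshold with the 2 largest changes each way in each role were named by rule, and the rest were named after their values were seen. Members and lists were chosen with earlier results of these data known. Alternatives changed scaling, floor, pseudocount, filter, variance model, weights, test, pairing, probe sets and arrays. Anks6 was not analysed here. Precision is limited by having 3 arrays per genotype.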

Additional observations from a re-analysis of the deposited data

Results flagged for a closer look

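The spiked-in controls lie outside the comparison of the Notch genes and were brighter on the Cy/+ arrays. The 18 hybridization control probe sets had a median of 1.83-fold over the +/+ arrays. The 24 probe sets of the poly-A controls had a median of 3.82-fold and were also brighter on every Cy/+ array.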

How the results depend on the processing

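Of 124 values of the tested members' log2 fold changes under the alternatives, 105 kept their direction and their side of the threshold, 12 lost the call, 5 gained one and 2 changed sign. The sign changes were those of Dll4 with quantile normalization (-0.0078) and of Rbpj by the mean of its probe sets (-0.20). By that mean Ncor1 (0.037), Hdac1 (-0.34) and Tle4 (-0.69) changed sign too, and Ncstn ranged from -0.10 to 0.038 when an array was left out. The number of members called higher was 4 as reported, 2 by the methods' t-test, and from 2 to 6 when an array was left out, with 2 on leaving out Cy/+ replicate 2 or 3 or +/+ replicate 1 or 2. The number called lower was 1, Notch2, with no filter. Of the other pathway genes, 7 were lower as reported and 4 to 8 when an array was left out, with 4 without +/+ replicate 1. With the replicate number as a block, 5 members were higher, Hey1 being the added call, and 22 other pathway genes were higher. Deviations from the group means of same-numbered arrays correlated at 0.15, -0.11 and -0.15, and 2 of 6 arrays correlated best with their own number. With 3 arrays per genotype these values cannot decide whether the numbers pair the samples. Dim signals limit Dll1, Notch2 and Notch3.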
